A study of Mus musculus with 12 samples.

Results

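The T-box genes examined here were 9 genes, Tbx1, Tbx2, Tbx3, Tbx4, Tbx5, Tbx6, Tbx18, Tbx20 and Eomes, taken by gene symbol. A probe set, the group of short probes that reports 1 transcript on an oligonucleotide array, belonged to a gene where the platform table gave it that gene symbol and no other. The 9 genes had 19 such probe sets, out of 34945 probe sets of 18193 genes with a single symbol. Within a gene the probe sets are numbered from the brightest down. Expression was measured on 12 arrays from mouse embryos at embryonic day 8, from a line of mixed C57BL/6 and FVB background labelled ER71 EYFP. ER71, now named Etv2, encodes an ETS-family transcription factor needed for blood and endothelial cells. The embryos were ER71 mutant or ER71 wild-type, and their cells were released with trypsin and sorted for EYFP, a yellow fluorescent protein, on a BD FACSAria. There were 3 arrays each of ER71 mutant EYFP-positive, ER71 wild-type EYFP-positive, ER71 mutant EYFP-negative and ER71 wild-type EYFP-negative cells, called mutant positive, wild-type positive, mutant negative and wild-type negative below. The labels do not give the sequences that drive EYFP, the kind of mutation, or whether the 3 samples of a group are separate animals, litters or pools, so the p-values reflect how far these samples spread, and that spread may be technical. All RNA was amplified in 2 rounds and labelled with biotin, per the labels.

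T-box factors bind DNA through a shared domain, the T-box, and activate or repress transcription together with GATA, NK-type and other partner factors. In the early embryo they help to divide the mesoderm into territories, and the roles named next do not all belong to the stage sampled. Tbx5 and Tbx20 act in cardiac and lateral plate mesoderm. Tbx2 and Tbx3 repress chamber genes where the atrioventricular canal and outflow tract will form. Tbx1 acts in pharyngeal mesoderm and the second heart field, Tbx18 in the sinus horn and proepicardium, Tbx4 in the allantois and later hindlimb, Tbx6 in presomitic mesoderm, and Eomes in the primitive streak and trophoblast.

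Values are the authors' log2 expression values, on which a difference of 1 unit is a factor of 2. Array medians were 6.98 to 7.06, and 25th percentiles were 5.62 to 5.69, which serves below as a mark for dim probe sets because signal over background was not given. With 3 arrays in a group, precision is limited by the number of arrays. Etv2 itself stood at 7.40, 7.26 and 7.28 in mutant positive cells, against 10.72, 10.70 and 11.36 in wild-type positive cells, with 7.24 to 7.49 in mutant negative and 7.50 to 7.85 in wild-type negative cells. The difference between mutant positive and wild-type positive cells was -3.61 ± 0.17 (SE), although the labels do not say whether this probe set lies in the altered part of the gene. Cdh5, an endothelial cadherin, stood at 4.86 to 5.09 in mutant positive and 10.04 to 10.35 in wild-type positive cells. The male-specific gene Eif2s3y was high on the arrays numbered 1 of both wild-type groups (10.81 and 11.23) and at 4.11 to 4.53 on the other 10 arrays. The difference between 3′ and 5′ actin control probe sets, which grows with RNA shortening, was 1.40 to 1.62 in mutant positive cells, 1.54 to 3.05 in wild-type positive cells, 1.87 to 2.72 in mutant negative cells and 1.57 to 3.14 in the wild-type negative group; its part in the results was not tested.

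Of the 9 genes, 6 had an entry in RefSeq's table of mouse promoters (build GRCm38.p6), and Tbx2, Tbx3 and Tbx5 had none. Promoter sequences are shown for 4 of the 6, 3 genes with higher mean values in mutant positive than in wild-type positive cells and Tbx6, low in both positive groups, so that they can be read side by side; those of Tbx1 and Eomes are not printed. Each line gives the 250 bases before the annotated start, in the direction of the gene, at chr11:85896515-85896764 on the plus strand for Tbx4, chr9:87731261-87731510 on the minus strand for Tbx18, chr9:24774304-24774553 on the minus strand for Tbx20 and chr7:126781233-126781482 on the plus strand for Tbx6. Capitals mark matches to the 5 motifs described after the sequences.
Tbx20: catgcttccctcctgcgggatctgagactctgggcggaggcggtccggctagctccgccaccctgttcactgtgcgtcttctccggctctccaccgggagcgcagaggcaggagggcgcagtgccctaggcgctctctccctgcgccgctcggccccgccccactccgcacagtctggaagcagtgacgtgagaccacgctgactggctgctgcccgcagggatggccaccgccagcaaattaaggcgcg
Tbx18: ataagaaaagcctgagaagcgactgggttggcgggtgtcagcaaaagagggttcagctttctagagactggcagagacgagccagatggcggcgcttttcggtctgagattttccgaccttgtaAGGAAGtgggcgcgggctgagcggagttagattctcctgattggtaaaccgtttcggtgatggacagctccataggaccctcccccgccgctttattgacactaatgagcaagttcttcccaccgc
Tbx4: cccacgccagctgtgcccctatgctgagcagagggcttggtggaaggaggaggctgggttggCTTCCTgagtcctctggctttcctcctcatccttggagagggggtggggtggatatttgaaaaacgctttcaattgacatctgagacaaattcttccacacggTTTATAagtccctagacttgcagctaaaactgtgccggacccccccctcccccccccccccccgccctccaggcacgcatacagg
Tbx6: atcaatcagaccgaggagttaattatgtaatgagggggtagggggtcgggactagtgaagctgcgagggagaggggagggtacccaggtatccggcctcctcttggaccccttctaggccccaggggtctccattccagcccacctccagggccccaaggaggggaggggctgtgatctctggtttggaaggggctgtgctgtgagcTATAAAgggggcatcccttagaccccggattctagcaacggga
The motifs were the T-box half-site GGTGTG, a strict ETS core CCGGAA, a looser ETS core AGGAAG, the GATA site AGATAA and the TATA box TATAAA, each searched on both strands in the 7 promoters of the 6 genes. The looser ETS core began 188 bases before the start of Tbx4, as CTTCCT on the gene's strand, and 126 bases before the start of Tbx18. The same letters occurred in 29.5% of all 32851 promoters of this length. The TATA box began 85 bases before the start of Tbx4, as TTTATA, and 43 bases before the start of Tbx6, and it occurred in 12.4% of all promoters. The T-box half-site, the strict ETS core and the GATA site matched 0 of the 7 promoters, against 16.3%, 12% and 9.99% of all promoters. No match overlapped another. In the Tbx20 promoter none of the 5 motifs was read.

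The first comparison set mutant positive cells against wild-type positive cells, the EYFP-bearing cells of the 2 ER71 genotypes. Of the 19 T-box probe sets 5 rose and 0 fell, from 5 genes: Tbx2, Tbx1, Tbx3, Tbx5 and Tbx18. Over the whole array 2.08% of 45037 probe sets rose and 2.34% fell (limma, adjusted p under 0.05 by the Benjamini-Hochberg method over all probe sets, two-sided). The calls of Tbx3 and Tbx18 were lost without both wild-type arrays numbered 1, which carried the high Eif2s3y signal. The median difference of the 19 was 0.91, against -0.01 for all probe sets. The 3 arrays of one group did not overlap the 3 of the other for 12 of the 19, with mutant positive higher for 10 and lower for 2, a pattern found for 21.8% of all probe sets. In these sorted bulk samples, fewer cells that express a gene and less RNA per cell cannot be told apart.

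**Figure D1:**
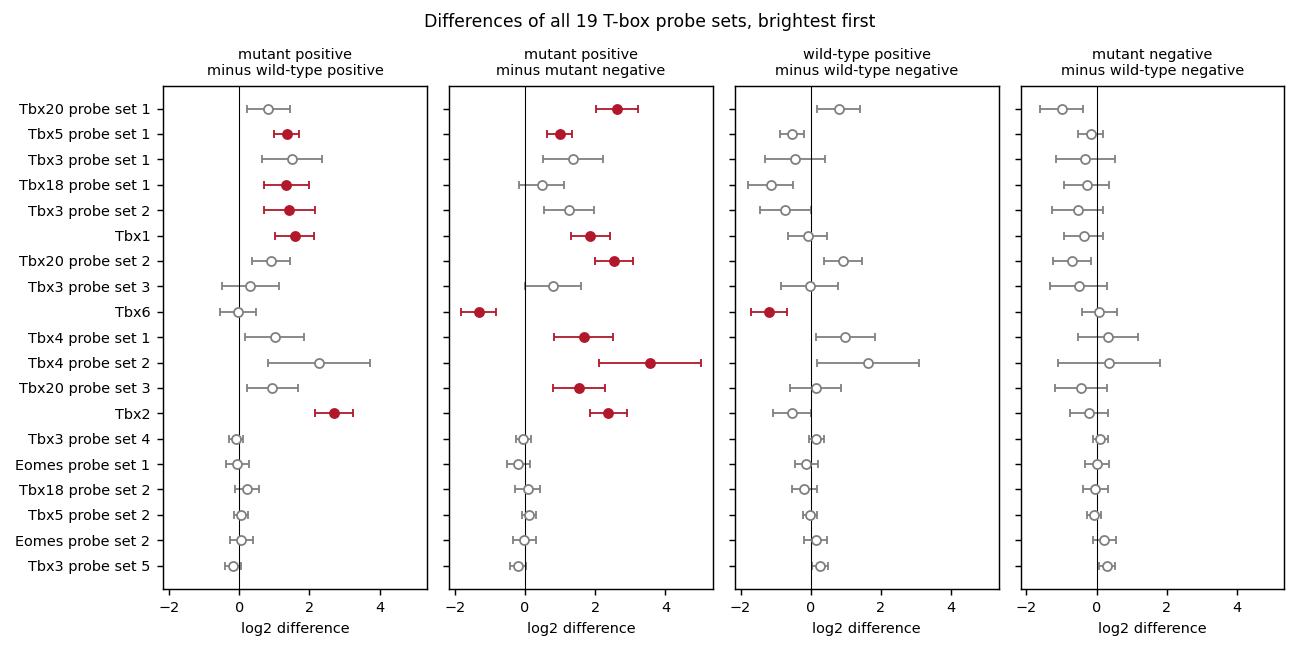
Log2 difference (x axis, with limma's 95% confidence interval) of all 19 T-box probe sets, brightest at the top, in 4 comparisons; filled red points passed adjusted p under 0.05 and open grey points did not. In the left panel 5 points are filled, all to the right of 0, and in the right panel, mutant negative minus wild-type negative, none is.

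Tbx20 was measured by 3 probe sets (1453351_at, 1425158_at and 1422219_a_at), whose values over the 12 arrays correlated with the brightest at r = 0.95 and 0.83. Its first probe set read 11.75, 12.17 and 12.66 in mutant positive cells, 11.58, 11.36 and 11.16 in wild-type positive cells, 9.36, 10.18 and 9.19 in mutant negative cells and 10.48, 10.79 and 10.43 in the wild-type negative group. The second read 9.65, 9.84 and 9.75 in mutant positive cells, 8.99, 9.04 and 8.47 in wild-type positive cells, 7.16, 7.36 and 7.12 in mutant negative cells and 7.32, 8.45 and 7.95 in the wild-type negative group. On both probe sets every mutant positive array was above every array of the other groups, and both positive groups were above both negative ones. Relative to mutant negative cells the differences were 2.62 ± 0.27 (SE; adjusted p = 0.000837), a factor of 6.13, on the first and 2.53 ± 0.24 (adjusted p = 0.000577) on the second, a factor of 5.77. Against wild-type positive cells the mutant positive values were 0.83 ± 0.27 higher on the first (adjusted p = 0.131) and 0.91 ± 0.24 higher on the second (adjusted p = 0.0654), which did not pass the threshold. The second did pass without wild-type negative array 1 (adjusted p = 0.0206) or 2 (0.0291), since these arrays enter the shared estimate of spread. It also passed without both wild-type arrays numbered 1 (0.0351). The third and dimmest probe set read 7.35, 8.19 and 8.73 in mutant positive cells, 6.80, 7.63 and 6.99 in wild-type positive cells, 6.50 to 6.61 in mutant negative cells and 6.71 to 7.46 in the wild-type negative group. Here mutant positive array 1 lay within the wild-type positive range, and the difference between these groups was 0.95 ± 0.33 (adjusted p = 0.153; 0.0375 without that array). The third rose by 1.53 ± 0.33 between mutant positive and mutant negative cells (adjusted p = 0.0351). That call was lost without mutant positive array 2 (0.121) or 3 (0.102), any of the 3 mutant negative arrays (0.0868 to 0.112) or wild-type negative array 1 (0.0549). It was also lost without both wild-type arrays numbered 1 (0.0656).

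Tbx5, which encodes a regulator of the first heart field and forelimb, had a bright probe set (1425695_at) and a dim one (1425694_at). The bright one read 10.14, 9.97 and 10.05 in mutant positive cells and 8.83, 8.70 and 8.58 in wild-type positive cells. It read 9.08, 9.08 and 9.04 in mutant negative cells and 8.81, 9.44 and 9.46 in the wild-type negative group. The 3 mutant positive arrays lay within 0.17 of each other and above all other arrays, and wild-type positive cells were lowest on average. Tbx5 rose by 1.35 ± 0.16 between mutant positive and wild-type positive cells (adjusted p = 0.000581), a factor of 2.55, and by 0.99 ± 0.16 between mutant positive and mutant negative cells (adjusted p = 0.00749). The dim probe set stayed between 5.23 and 5.54, under the 25th percentile on all 12 arrays, with differences of 0.05 ± 0.09 and 0.12 ± 0.09 in the same comparisons.

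Tbx2, a repressor of chamber myocardial genes, had the largest factor among the T-box probe sets that rose in mutant positive against wild-type positive cells. Its only probe set (1422545_at) read 8.39, 8.99 and 9.62 in mutant positive cells, 6.49, 6.32 and 6.09 in wild-type positive cells, 6.48, 6.69 and 6.70 in mutant negative cells and 6.76, 6.94 and 6.80 in the wild-type negative group. The 9 arrays outside the mutant positive group lay between 6.09 and 6.94, and the lowest mutant positive array was at 8.39. The rise was 2.70 ± 0.24 over wild-type positive cells (adjusted p = 8.5e-05), a factor of 6.50, and 2.38 ± 0.24 over mutant negative cells (adjusted p = 0.000762), a factor of 5.20. Tbx2 and Tbx4 are neighbours on chromosome 11 with no protein-coding gene annotated between them, and Tbx3 and Tbx5 are neighbours on chromosome 5 in the same way (RefSeq, GRCm38.p6).

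Tbx3, the close relative of Tbx2 with a role in the conduction system, had 5 probe sets that did not move alike. Its first (1437479_x_at, whose suffix marks probe sets with some probes shared with other transcripts) read 9.14, 9.61 and 10.78 in mutant positive cells, 8.58, 8.07 and 8.38 in wild-type positive cells, 8.33, 9.11 and 8.0 in mutant negative cells and 8.88, 8.98 and 8.54 in the wild-type negative group. The second (1448029_at) read 8.95, 9.80 and 10.18 in mutant positive cells, 8.31, 7.79 and 8.53 in wild-type positive cells, 8.37, 8.81 and 7.98 in mutant negative cells and 9.14, 9.07 and 8.59 in the wild-type negative group. On both, all mutant positive arrays were above all wild-type positive and mutant negative arrays; on the second, mutant positive array 1 was below wild-type negative arrays 1 and 2. The second probe set rose by 1.43 ± 0.32 between mutant positive and wild-type positive cells (adjusted p = 0.0313), a factor of 2.70. That call was lost without mutant positive array 2 (0.0969) or 3 (0.0975), wild-type positive array 1 (0.0678) or 2 (0.0980), or wild-type negative array 2 (0.0504). It was also lost without both wild-type arrays numbered 1 (0.0995). The first gave 1.50 ± 0.38 (adjusted p = 0.0547), and it passed without mutant positive array 1 (0.0285) or mutant negative array 2 (0.0408). Against mutant negative cells the first gave 1.36 ± 0.38 (adjusted p = 0.115) and the second 1.25 ± 0.32 (0.0787), and both passed without mutant positive array 1 (0.0496 and 0.0200). The third (1445757_at) gave 0.32 ± 0.37 with overlapping arrays. The fourth and the fifth probe sets ran between 6.55 and 6.92 and between 4.71 and 5.24, and they did not follow the brightest (r = -0.11 and -0.25 over 12 arrays, against 0.94 and 0.78 for the second and the third). The fifth was under the 25th percentile on all 12 arrays. These were the 2 probe sets whose mutant positive arrays lay below all wild-type positive arrays, with differences of -0.10 ± 0.09 and -0.18 ± 0.10, neither past the threshold.

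Tbx1, a regulator of pharyngeal mesoderm and outflow tract progenitors, read 9.74, 10.50 and 9.31 in mutant positive cells and 8.22, 8.38 and 8.20 in wild-type positive cells (probe set 1425779_a_at). It read 8.06, 7.99 and 7.91 in mutant negative cells and 7.99, 8.47 and 8.58 in the wild-type negative group. The mutant positive arrays were above the other 9, which lay between 7.91 and 8.58. Tbx1 rose by 1.59 ± 0.25 over wild-type positive cells (adjusted p = 0.00476), a factor of 3.00, and by 1.87 ± 0.25 over mutant negative cells (adjusted p = 0.00318), a factor of 3.64. The first of these calls was lost when only the 2 groups compared were fitted (adjusted p = 0.0530).

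Tbx18, known from the sinus horn, proepicardium and anterior part of each somite, was low in wild-type positive cells on its brighter probe set (1429974_at). It read 9.22, 9.77 and 9.08 in mutant positive cells, 8.16, 8.34 and 7.52 in wild-type positive cells, 9.10, 8.63 and 8.89 in mutant negative cells and 8.98, 8.75 and 9.74 in the wild-type negative group. The wild-type positive arrays were below the other 9, and the other 3 groups overlapped. The mutant positive values were higher than the wild-type positive ones by 1.34 ± 0.29 (adjusted p = 0.0246), a factor of 2.54. This call was lost without mutant positive array 1 (0.0573) or 2 (0.0885) or wild-type positive array 3 (0.0821). It was also lost without both wild-type arrays numbered 1 (0.0769). Against mutant negative cells the difference was 0.48 ± 0.29 (adjusted p = 0.629). The second probe set of Tbx18 ran from 5.17 to 5.76, with 10 of 12 arrays under the 25th percentile, and its differences in these 2 comparisons were 0.23 ± 0.16 and 0.08 ± 0.16.

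**Figure D2:**
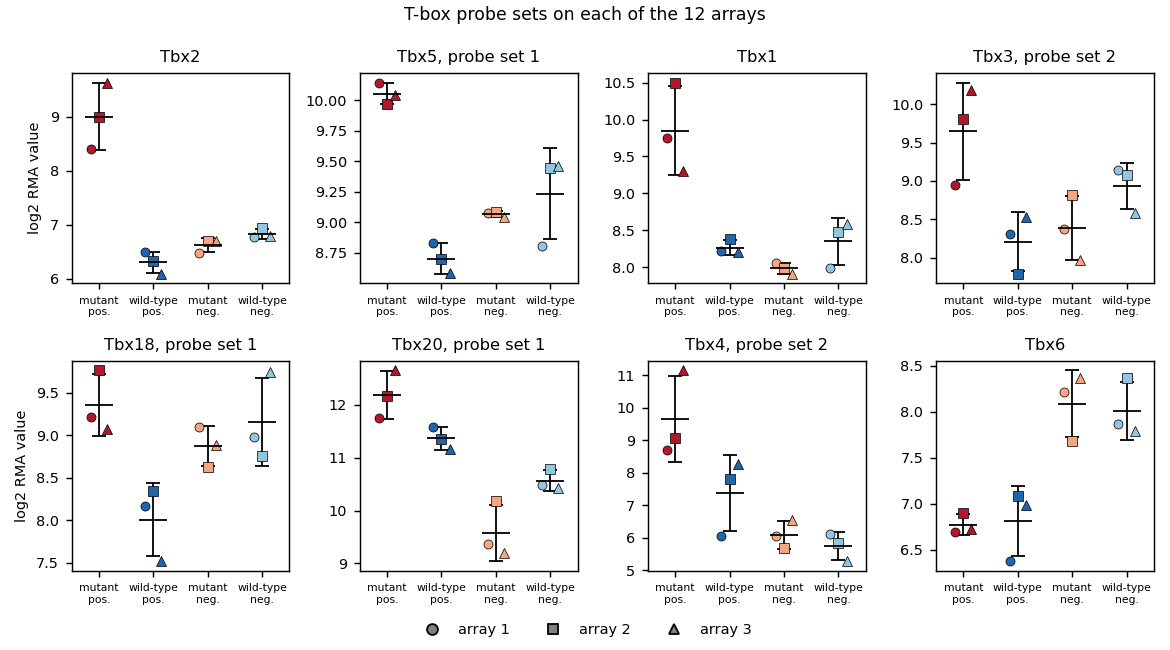
Log2 RMA values (y axis, own scale in each panel) of 8 T-box probe sets on the 12 arrays by group; symbols give the array number, bars the group mean and whiskers the SD of 3 arrays. Mutant positive arrays lie above all others for Tbx2, Tbx5, Tbx1, Tbx20 and Tbx4, wild-type positive arrays lie lowest for Tbx18, and both positive groups lie below both negative groups for Tbx6.

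Tbx4, which acts in the allantois before the hindlimb, showed the widest spread among arrays of a group. Its second probe set (1456033_at) read 8.72, 9.08 and 11.16 in mutant positive cells, 6.06, 7.81 and 8.27 in wild-type positive cells, 6.06, 5.68 and 6.55 in mutant negative cells and 6.13, 5.85 and 5.29 in the wild-type negative group. The first (1426321_at) read 7.88, 7.91 and 9.69 in mutant positive cells, 7.53, 7.24 and 7.66 in wild-type positive cells, 6.81, 6.74 and 6.91 in mutant negative cells and 6.67, 6.35 and 6.48 in the wild-type negative group. On both, mutant positive array 3 was the highest and every mutant positive array was above every array of the other groups. The rise between mutant positive and mutant negative cells was 3.55 ± 0.66 on the second probe set (adjusted p = 0.0165), a factor of 11.7, and 1.67 ± 0.38 on the first (adjusted p = 0.0474). The call on the second was lost without mutant negative array 1 (0.0503) or 2 (0.0667), and that on the first without any of the 9 arrays outside the mutant positive group (0.0620 to 0.142). The call on the first was also lost without both wild-type arrays numbered 1 (0.103). Against wild-type positive cells the differences were 2.27 ± 0.66 (adjusted p = 0.0869) and 1.01 ± 0.38 (adjusted p = 0.192), neither past the threshold. Mutant positive array 3 carried much of these sizes. Without it the rise over mutant negative cells was a factor of 6.96 on the second probe set (adjusted p = 0.0321) and a log2 difference of 1.07 on the first (adjusted p = 0.00533), and the log2 differences from wild-type positive cells were 1.51 on the second (0.206) and 0.41 on the first (0.183).

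Tbx6, which drives presomitic mesoderm toward somites, was the T-box gene that ran the other way. It read 6.69, 6.91 and 6.72 in mutant positive cells, 6.38, 7.08 and 6.98 in wild-type positive cells, 8.22, 7.68 and 8.37 in mutant negative cells and 7.87, 8.37 and 7.79 in the wild-type negative group (probe set 1449868_at). Both positive groups lay below both negative groups with no overlap, and within each sort fraction the genotypes overlapped. Tbx6 fell by 1.32 ± 0.23 between mutant positive and mutant negative cells (log2; adjusted p = 0.0119) and by 1.20 ± 0.23 between wild-type positive and wild-type negative cells (adjusted p = 0.0122). The first call was lost without mutant negative array 3 (0.0525) and the second without wild-type negative array 2 (0.0564). Genotype within the positive fraction gave a difference of -0.04 ± 0.23, with a 95% confidence interval of -0.55 to 0.47. Eomes, an early streak and trophoblast factor, passed no test on either probe set. Its first ran from 6.36 to 7.01 over all 12 arrays, its second from 5.04 to 5.59, under the 25th percentile on all 12, and its differences between mutant positive and wild-type positive cells were -0.05 ± 0.15 and 0.05 ± 0.15.

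The second comparison asked how positive cells differed from negative cells of the same embryos' genotype. In mutants 8 T-box probe sets rose and 1 fell, the rises on all 3 probe sets of Tbx20, both of Tbx4 and those of Tbx2, Tbx1 and Tbx5 given above, and the fall on Tbx6. Over the whole array 1.55% rose and 1.07% fell. The median difference of the 19 was 0.99, against -0.03 for all probe sets, and groups did not overlap for 12 of the 19, against 16.1% of all probe sets. In wild types 0 rose and 1, Tbx6, fell, where 2.76% of all probe sets rose and 1.72% fell; 9 of the 19 did not overlap, against 21.2%, and the median was -0.03, against -0.01. Mutant positive cells enter both the first comparison and this one, so the counts share those 3 arrays.

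In wild types the closest to the threshold were Tbx18, whose first probe set was lower in positive cells by a log2 difference of -1.15 ± 0.29 (adjusted p = 0.0515), and Tbx20, whose second was higher by 0.93 ± 0.24 (adjusted p = 0.0624). Single arrays, and a block for the replicate number (values in the last section), moved these results across the threshold. Tbx18 passed without mutant positive array 2 (0.0482), Tbx20 passed without wild-type positive array 3 (0.0448) or wild-type negative array 2 (0.0152), the first probe set of Tbx4 passed without mutant positive array 3 (0.00161), and Tbx5, at -0.53 ± 0.16 (adjusted p = 0.0979), passed without wild-type negative array 1 (0.00373). Without both wild-type arrays numbered 1, which carried the high Eif2s3y signal, Tbx5 differed by -0.81 (adjusted p = 0.00507) and Tbx6 no longer passed (0.0822).

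Whether the sort difference itself depended on genotype was tested as an interaction, which takes the positive minus negative difference of the mutants and subtracts the same difference of the wild types. It passed the threshold above 0 for 3 of the 19 probe sets and below 0 for 0, against 0.38% and 0.893% of all probe sets. Tbx2 was higher in positive than in negative cells by 2.38 in mutants and differed by -0.53 in wild types, an interaction of 2.91 ± 0.35 (adjusted p = 0.00144). Tbx5 differed by 0.99 in mutants and -0.53 in wild types, an interaction of 1.52 ± 0.22 (adjusted p = 0.00594). For Tbx1 the differences were 1.87 and -0.08, an interaction of 1.95 ± 0.36 (adjusted p = 0.0236). The Tbx1 interaction no longer passed without arrays 1 (0.0527) or 3 (0.0586) of wild-type positive cells, mutant negative array 2 (0.0626) or 3 (0.0677), or wild-type negative array 2 (0.0778) or 3 (0.0767). It was also lost without both wild-type arrays numbered 1 (0.0572), which carried the high Eif2s3y signal. Tbx20 gave 1.82 ± 0.39 on its first probe set (adjusted p = 0.0534) and 1.60 ± 0.35 on its second (0.0558), and Tbx3 gave 1.98 ± 0.46 on its second (0.0758). All of these passed with a random block for the replicate number, as given in the last section. The first of Tbx20 passed without mutant positive array 1 (0.0339) or mutant negative array 2 (0.0127), the second of Tbx20 without wild-type negative array 1 (0.00805), and the second of Tbx3 without mutant positive array 1 (0.0184). For Tbx6 the interaction was -0.12 ± 0.32, with a 95% confidence interval of -0.84 to 0.60.

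**Figure D3:**
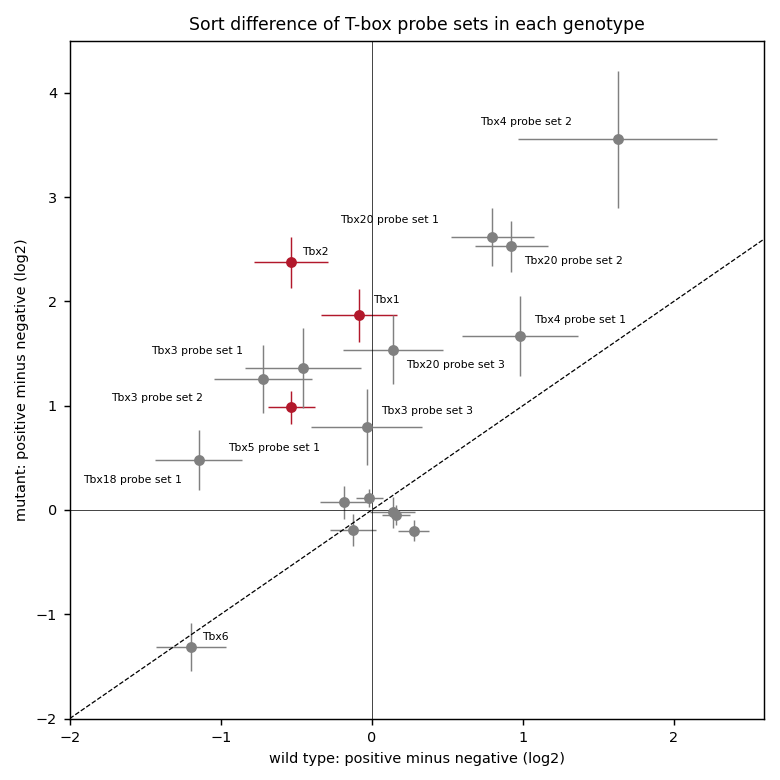
Positive minus negative log2 difference of each T-box probe set in mutants (y axis) and in wild types (x axis), with limma's SE; the dashed line marks equal differences and red points passed the interaction test. The red points, Tbx2, Tbx1 and the first probe set of Tbx5, lie above the line. So do the grey points named for Tbx20, Tbx3, Tbx4 and Tbx18, which did not pass. Tbx6 lies near the line at the lower left, and the 6 unnamed points near 0 are the fourth and the fifth probe sets of Tbx3, the second of Tbx5 and Tbx18 and both of Eomes.

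Between mutant negative and wild-type negative cells 0 of the 19 T-box probe sets passed limma's test, as did 0% of the whole array, where 2119 of 45037 probe sets had an unadjusted p under 0.05. At that unadjusted level 3 of the 19 differed: the first and second probe sets of Tbx20, by -0.99 ± 0.27 and -0.69 ± 0.24, and the fifth of Tbx3, by 0.29 ± 0.10. On the first Tbx20 probe set the mutant negative arrays lay below all wild-type negative arrays. The groups did not overlap for 5 of the 19, against 10.9% of all probe sets.

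Genes that work with T-box factors were counted at the brightest probe set of each gene. Of 11 partner factors, transcription factors that bind beside T-box proteins or act in the same territories, 8 rose and 0 fell between mutant positive and wild-type positive cells, with a median of 1.19. Counted in the same way, 3.16% of 18193 genes rose and 3.11% fell in that comparison, 2.37% rose and 1.74% fell between mutant positive and mutant negative cells, and 3.84% rose and 2.65% fell between wild-type positive and wild-type negative cells. The interaction passed above 0 for 0.594% and below 0 for 1.27% of these genes, and all list counts below are to be read against these shares. Gata6, a cardiac and endodermal GATA factor, rose by 1.19 ± 0.11 (adjusted p = 0.000109), Hand2, a basic helix-loop-helix factor of the heart and limb, by 1.57 ± 0.16 (0.000187), Msx2 by 1.63 ± 0.24 (0.00319) and Gata5 by 1.37 ± 0.21 (0.00354). Relative to mutant negative cells, 6 of the 11 rose in mutant positive cells and 0 fell, with a median of 1.07. In that comparison Mef2c, a muscle and endothelial regulator, rose by 1.72 ± 0.18 (0.000928), whereas its difference from wild-type positive cells was -0.10 ± 0.18. It was also the 1 partner that rose between wild-type positive and wild-type negative cells, by 1.03 ± 0.18 (0.00767; 0.0527 without both wild-type arrays numbered 1). The interaction passed for 4 of the 11, with Gata6 at 1.72 ± 0.16 (0.000213) and Hand2 at 1.85 ± 0.22 (0.00158).

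Of 8 corepressors, which T-box proteins recruit to silence targets, 0 rose and 1 fell between mutant positive and wild-type positive cells. This was Ripply3, a partner of Tbx1 in the pharyngeal region, which fell by 1.97 ± 0.17 (log2; adjusted p = 4.8e-05) where Tbx1 itself rose. In mutant positive against mutant negative cells 0 rose and 3 fell, among them Ripply3 by a log2 difference of -1.22 ± 0.17 (0.00318) and Tle4 by -1.12 ± 0.15 (0.00330). The third was Ripply2, the somite boundary relative of Ripply3, by -2.14 ± 0.33 (0.00599), but it was under the 25th percentile on 10 of 12 arrays, all 3 mutant positive arrays included, so the size of its fall is not well measured. Between wild-type positive and wild-type negative cells 0 rose and 1 fell, and the interaction passed below 0 for 1, Ripply3, at -1.88 ± 0.23 (0.00193).

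Of 9 measured heart-related targets of T-box factors 3 rose and 0 fell between mutant positive and wild-type positive cells. Wnt2, a signal of the cardiac inflow region, rose by 2.05 ± 0.27 (adjusted p = 0.00154). Smpx, a muscle protein, rose by 1.83 ± 0.39 (0.0245), a call that depended on mutant positive array 1 and wild-type positive arrays 1 and 3 (adjusted p up to 0.113 over the alternatives), and Mycn by 0.54 ± 0.13 (0.0462), a call lost under 13 alternatives (up to 0.156). Nppa, a chamber gene that Tbx5 activates and Tbx2 and Tbx3 repress, differed by -0.36 ± 0.13 (0.184) and was named after its values were seen. The sort comparison in mutants had 1 rise and 1 fall; between wild-type positive and wild-type negative cells 0 rose and 2 fell, and the interaction passed above 0 for 1, Wnt2, at 2.17 ± 0.39 (0.0197).

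Of the 9 targets of Tbx6 and paraxial genes 0 rose and 4 fell between mutant positive and mutant negative cells, with a median of -0.64. Dll1, a Notch ligand that Tbx6 activates, fell by 2.22 ± 0.16 (log2; adjusted p = 0.000218) and Hes7, a segmentation clock gene, by 1.51 ± 0.17 (0.00126). Between wild-type positive and wild-type negative cells 0 rose and 2 fell, Dll1 by 1.37 ± 0.16 (0.000511) and Hes7 by 0.88 ± 0.17 (0.0133), the last call lost without both wild-type arrays numbered 1 (0.0971). Between mutant positive and wild-type positive cells 0 of the 9 passed and the interaction passed for 0. Of 10 genes of the primitive streak and nascent mesoderm, where Eomes acts, 0 passed between mutant positive and wild-type positive cells, 3 fell and 0 rose between mutant positive and mutant negative cells, and 5 fell and 0 rose between wild-type positive and wild-type negative cells. Of 7 inducing signals 2 rose and 0 fell between mutant positive and wild-type positive cells, among them Bmp4 by 1.20 ± 0.21 (0.00761). Bmp2, named here although it did not pass, averaged 10.80 in mutant positive and 11.07 in wild-type positive cells. In the mutant sort comparison Bmp4 rose by 1.73 ± 0.21 (0.00162), with 2 of the 7 higher and 1 lower. Between wild-type positive and wild-type negative cells 1 of the 7 rose and 2 fell. Of 6 other T-box genes with a single-symbol probe set (Tbr1, Tbx15, Tbx19, Tbx21, Tbx22 and Mga), 0 passed in any of the 5 comparisons, and their differences between mutant positive and wild-type positive cells ran from -0.30 to 0.11. Of these, Tbr1 and Tbx22 were under the 25th percentile on all 12 arrays and Tbx15 on 6, so differences in them could not be read well.

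**Figure D4:**
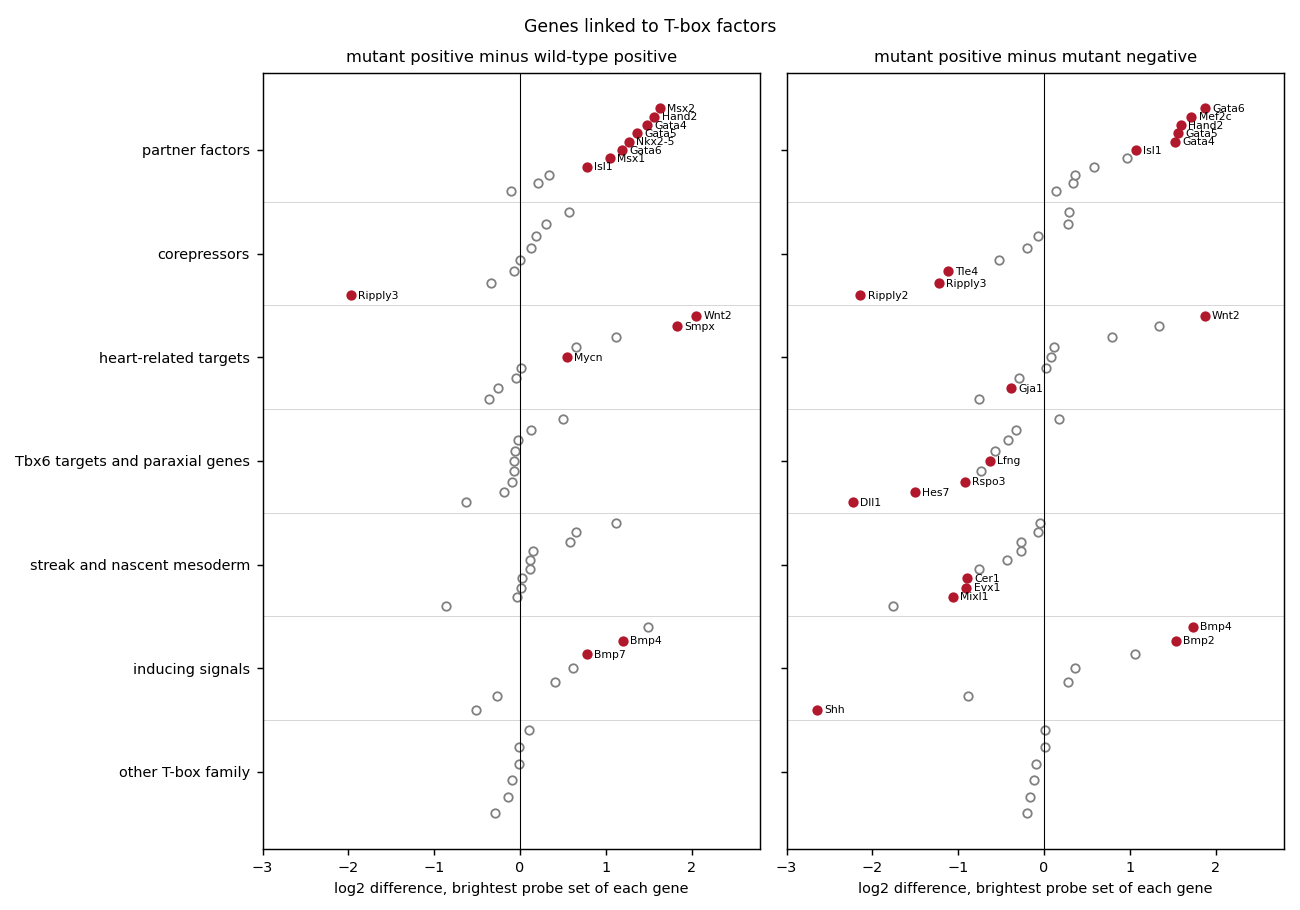
Log2 difference (x axis) of genes linked to T-box factors, 1 point per gene at its brightest probe set, for mutant positive minus wild-type positive (left) and mutant positive minus mutant negative cells (right); filled red points with a name passed adjusted p under 0.05. Partner factors lie to the right with 8 and 6 filled points, and the filled Tbx6 targets in the right panel all lie to the left of 0.

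Markers of the cell types that the fractions could hold moved with these genes, and their part in the T-box differences was not tested. The mean log2 level of 5 cardiomyocyte markers was 12.69 to 13.07 on mutant positive arrays, against 10.08 to 11.20 on wild-type positive, 10.31 to 11.20 on mutant negative and 10.79 to 11.30 on wild-type negative arrays, and 4 of the 5 rose in mutant positive cells against either wild-type positive or mutant negative cells. For 5 lateral plate markers the mean was 10.60 to 11.00 on mutant positive, 9.27 to 9.45 on wild-type positive, 9.22 to 9.25 on mutant negative and 9.69 to 10.04 on wild-type negative arrays, and 4 of 5 rose in each of the same comparisons. In contrast, 6 of 6 erythroid and 5 of 6 endothelial markers fell between mutant positive and wild-type positive cells. The endothelial mean was 7.36 to 7.51 on mutant positive, 9.88 to 10.10 on wild-type positive, 6.47 to 6.64 on mutant negative and 6.36 to 6.44 on wild-type negative arrays. The erythroid mean was 5.95 to 6.07 on mutant positive, 11.43 to 12.11 on wild-type positive, 6.05 to 8.05 on mutant negative and 6.20 to 8.69 on wild-type negative arrays. Wild-type positive cells thus carried the blood and endothelial markers, which rose over wild-type negative cells for 5 of 6 and 6 of 6. Between mutant positive and mutant negative cells 2 of the 6 endothelial markers rose and 0 fell, and 4 did not pass. Among these 4, Cdh5 and Emcn were under the 25th percentile in mutant positive cells. Pecam1 averaged 6.04 there, against 5.99 in mutant negative cells. Kdr, a VEGF receptor that mesodermal progenitors also express, read 11.48, 11.72 and 12.17 in mutant positive cells, against 9.19 to 9.24 in mutant negative cells, a rise of 2.57 ± 0.17 (adjusted p = 0.000141). Tek, an angiopoietin receptor, read 10.15, 9.80 and 9.03 in mutant positive cells, against 7.31 to 7.80 in mutant negative cells, a rise of 2.04 ± 0.28 (adjusted p = 0.00334).

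Beside Tbx6, 4 of 4 neural and 2 of 5 somite markers fell between mutant positive and mutant negative cells, and 3 of 4 and 3 of 5 between wild-type positive and wild-type negative cells. Dll1 and Msgn1 are on both the somite list and the list of Tbx6 targets and paraxial genes. All 5 somite markers are named here. In mutant positive and mutant negative cells Dll1 averaged 7.90 and 10.12, Pax3 8.14 and 10.39, and Meox1 9.34 and 9.65. Tcf15 averaged 9.30 and 9.95 there, and Msgn1 7.30 and 7.63. In wild-type positive and wild-type negative cells Meox1 averaged 8.28 and 9.38, and Tcf15 8.40 and 10.47. The somite mean was 8.23 to 8.49 on mutant positive, 8.05 to 8.22 on wild-type positive, 9.45 to 9.69 on mutant negative and 9.23 to 9.75 on wild-type negative arrays. The neural mean was 6.58 to 8.18 on mutant positive, 6.98 to 8.64 on wild-type positive, 10.55 to 10.82 on mutant negative and 10.17 to 10.62 on wild-type negative arrays. Epithelial and definitive endoderm markers fell for 4 of 5 and rose for 0 in mutants, and fell for 4 and rose for 1 in wild types, in the sort comparison. The 4 that fell in wild types were Cdh1, Epcam, Foxa1 and Cldn6, and the 1 that rose was Sox17. Between mutant positive and wild-type positive cells 1 fell, again Sox17. Sox17 averaged 12.09 in wild-type positive cells and 7.88 in mutant positive cells. Its negative-cell averages were 9.21 for wild types and 8.92 for mutants. Like Cdh5, Sox17 was thus highest in wild-type positive cells. Visceral endoderm markers passed in 0 comparisons. Their mean ran from 5.75 to 9.62 over the mutant positive arrays and from 5.65 to 5.98 over the wild-type positive ones. It ran from 8.71 to 8.83 over the mutant negative arrays and from 8.01 to 8.81 over the wild-type negative ones. Mutant positive array 1 stood apart here, with Afp, a fetal serum protein, at 11.98 against 5.02 and 4.03 on arrays 2 and 3. Ttr, a thyroid hormone carrier, was at 12.21 against 5.58 and 5.79. Afp was at 9.34 to 11.06 on the negative arrays. In wild types Afp was at 4.29 to 4.34 on positive and 9.34 to 10.67 on negative arrays, and Ttr at 5.14 to 6.74 and 10.83 to 11.76. Amn did not overlap there either, while Apoa1 and Apob did. Mutant positive array 1 enters the spread shared by all groups, so a missing call for Afp or Ttr says little. Omission of mutant positive array 1 moved calls of Tbx3, Tbx18 and Tbx20 above, as did omission of other arrays. The part of its endoderm signal in these calls was not tested. Without this array the T-box count was 6 between mutant positive and wild-type positive cells, 11 between mutant positive and mutant negative cells and 5 for the interaction, against 5, 9 and 3 with it. Of 6 trophoblast markers 1 rose and 0 fell between mutant positive and wild-type positive cells, 1 rose and 1 fell between mutant positive and mutant negative cells, and 0 rose and 1 fell between wild-type positive and wild-type negative cells. RMA values have no true zero, so no marker is at 0 on these arrays.

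The T-box genes also differed in which genes tracked them over the 12 arrays. Pearson's r was taken between the brightest probe set of the T-box gene and every single-symbol probe set of other genes. For another gene the r given is thus the highest over its probe sets. It is a description of arrays that share group, library and scaling. Tbx2 was followed most closely by Tgfbi (r = 0.97), Tgfb2 (0.96) and Hand2 (0.95). Tbx1 was followed by Popdc2 (0.97), Smoc2 (0.97) and Des (0.97), of which Popdc2 and Des are known from striated muscle. For Tbx5 the closest were Prrx2 (0.95), Rbm24 (0.95) and Echdc2 (0.95), and for Tbx20 they were Igf2r (0.96), Tmem158 (0.96) and Kitl (0.96). Tbx18 had Irs1 (0.95), Hmgn1 (0.95) and Msl3l2 (0.93), and Tbx4 had Slc38a4 (0.95), Amot (0.95) and Plac1 (0.94). Tbx6 stood with Sox3 (0.97), Dpysl5 (0.96) and Fabp7 (0.96), genes known from neural tissue. Among the T-box genes themselves r was taken between brightest probe sets. Tbx2 ran closest to Tbx5 (r = 0.90), Tbx3 (0.88) and Tbx1 (0.85), Tbx6 ran against Tbx20 (-0.84) and Tbx4 (-0.72), and Tbx18 had r = 0.01 with Tbx20.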

How the data were processed

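Expression was measured in 4 groups of 3 arrays, the groups taken from the labels. The values are on the log2 scale as deposited, and the authors computed them with RMA, per the submitters' processing notes. Its version and settings are not given in the labels or headers, and the values were used unchanged. Of 45101 probe sets 64 array controls were left out, leaving 45037; the platform table gave 34945 of these 1 symbol, 932 several, and did not list 9160. Tests used limma 3.58.1 in R 4.3.3 with 1 model of the 4 group means (8 residual degrees of freedom), 5 comparisons, Benjamini-Hochberg adjustment over all probe sets and a threshold of 0.05, two-sided. Errors of differences are limma's moderated SE. Adjusted p-values given in brackets after an array is named, or after ± SE, are from the same test.

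The T-box genes and the gene lists (partner factors, corepressors, heart-related targets, Tbx6 targets and paraxial genes, streak genes, inducing signals, other T-box genes and cell type markers) were chosen with earlier results of these data known. All T-box probe sets are reported. From a list, at most 4 genes with the smallest p in a comparison are named, exceptions being identified. The 3 probe sets of other genes with the highest r are given for T-box genes called in at least 1 comparison at their brightest probe set. T, Tbx10, Ripply1 and Hcn4 were not analysed here. Alternatives covered scaling, a filter on dim probe sets, 1 probe set per gene, moderation, the samples fitted, a replicate block, a minimum difference and leaving out arrays.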

Additional observations from a re-analysis of the deposited data

Results flagged for a closer look

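The sort difference of 3 T-box genes depended on genotype by the interaction test, and each is a candidate for a closer look. The Tbx1 call was lost in 7 of 21 alternatives, among them the fit without both wild-type arrays numbered 1 (adjusted p = 0.0572). The calls of Tbx2 and Tbx5 were lost in 0. The positive minus negative difference was larger in mutants than in wild types by 2.91 for Tbx2, by 1.95 for Tbx1 and by 1.52 for the first probe set of Tbx5 (log2). For Tbx2 and Tbx5 the difference was above 0 in mutants (2.38 and 0.99) and below 0 in wild types (-0.53 and -0.53), although neither wild-type difference passed its own test. Groups of 3 arrays are too small for a test of single outlying arrays.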

How the results depend on the processing

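With the settings of the report 18 differences of T-box probe sets were called, and each was tested in 20 to 22 of 22 alternatives. The fit of only the groups compared did not cover the interaction. The fixed replicate block did not cover comparisons between genotypes, and 1 probe set per gene kept only the brightest. Of the 18, 8 held in every alternative that tested them and 0 reversed direction. The 8 were Tbx2 in both comparisons of mutant positive cells and the interaction, Tbx5 against wild-type positive cells and in the interaction, Tbx1 against mutant negative cells, and the first and second probe sets of Tbx20 against mutant negative cells. The count of T-box calls between mutant positive and wild-type positive cells was 5, and it was 2 when only those groups were fitted and 3 to 6 when single arrays were left out. Between wild-type positive and wild-type negative cells the count was 1, and it was 2 with 1 probe set per gene, with quantile normalization repeated, with dim probe sets left out and with a fixed replicate block, 3 with only the groups compared and 3 with a random replicate block, and 1 to 2 with single arrays left out. The interaction count was 3, and it was 5 with dim probe sets left out, 6 with a random replicate block and 2 to 5 with single arrays left out. The sort comparison in mutants, 9 in the report, stayed at 6 to 11, and the one between mutant negative and wild-type negative cells at 0. The replicate numbers were not taken as pairing the arrays: positive and negative arrays with the same number deviated from their groups with correlations of 0.659, 0.414 and 0.520 in mutants but 0.198, 0.0696 and 0.167 in wild types. Across genotypes the same numbers gave -0.122 to 0.0394. Array 1 of both wild-type groups shared the high Eif2s3y signal, and the labels do not say whether same-numbered arrays share embryos. Over the whole array, the count between mutant positive and wild-type positive cells, 1989, was 960 with only those groups fitted, 1024 with a minimum of 1 log2 unit, 1304 without mutant positive array 1 and 1303 without both wild-type arrays numbered 1. The mutant sort comparison, 1181, became 1993 with a random and 1848 with a fixed replicate block, 565 with only the groups compared, 744 with the minimum, 699 without mutant positive array 2, and 757 and 715 without mutant negative array 2 and 3. Between wild-type positive and wild-type negative cells, 2018 became 3252 with the random block, 1159 with the minimum, 1272 and 1303 without wild-type negative array 1 and 2, and 962 without both wild-type arrays numbered 1. On the named probe sets, the random replicate block brought the interaction past the threshold for the first and second of Tbx20 (adjusted p = 0.0205 and 0.0190) and the second of Tbx3 (0.0351), and the fixed replicate block for the second of Tbx20 (0.0445). Between wild-type positive and wild-type negative cells the second of Tbx20 passed with the random (0.0243) and the fixed block (0.0430). The first of Tbx18 passed there with the random block (0.0330). Between mutant positive and mutant negative cells the random block brought the second of Tbx3 past the threshold (0.0387). The interaction count, 573, was 1060 with the random and 878 with the fixed replicate block. Between mutant negative and wild-type negative cells 0 became 1 without mutant negative array 2 or wild-type negative array 3. Fitting only the groups compared leaves fewer arrays for the estimate of spread; otherwise the cause was not tested. Of 137 called differences of genes on the lists, 87 held in every alternative that tested them and 0 reversed. Dim probe sets limit what can be read for Eomes, Ripply2, Tbr1, Tbx15 and Tbx22 and for the dimmest probe sets of Tbx3, Tbx5 and Tbx18.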
